A study of Rattus norvegicus with 6 samples.

Results

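Cultured rat muscle stem cells given cholesterol were set against cells of both glucose controls, gene by gene and across all pathways. The comparison uses 3 of the 6 arrays of the study, and the log2 intensities of the high glucose control and, separately, of the low glucose control were subtracted from that of the cholesterol array. All arrays hold total RNA of stem cells taken from the skeletal muscle of male rats by the plating method. Cholesterol was given in six-well plates at 100 mg/dl together with cyclodextrin, a ring-shaped sugar that keeps the sterol in solution. The remaining arrays are titled fatty acid (sodium palmitate is the other lipid in the labels), OZ serum and LZ serum, and appear here only as further levels. The animals' age and strain and the length of treatment are not in the labels, nor is any statement on cyclodextrin in the control wells or on which glucose medium the cholesterol cells had. Cholesterol and its carrier therefore cannot be told apart. Each group is 1 array, so no value carries an error, no test was possible, and every difference describes these arrays rather than the treatments. Where a culture holds several cell types, fewer cells of a type and less RNA per cell cannot be told apart.

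Of 18166 named genes, 11540 had a mean log2 intensity over the 6 arrays of at least 6.74, the median of all values, and were compared. A gene was called when both controls lay at least 2-fold under it, or both at least 2-fold over it. The high glucose control and the low glucose control are shortened to the high and the low control. Where 2 differences stand in brackets or side by side, the first is from the high control, and a single difference is that from the nearer control. With cholesterol 44 genes were called higher (0.381% of those compared) and 93 lower (0.806%). Counted at any size, 36.3% of the 11540 genes were higher than both controls and 33.6% lower, the shares against which the counts of a list's higher and lower members are to be read. The medians of all 11540 differences were 0.01 from the high control and 0.00 from the low control. The spread of the differences (SD over genes) was 0.342 and 0.330, while between the high and the low glucose control it was 0.244. Those controls were at least 2-fold apart in 41 genes (0.355%), which include 2 of the 44 higher genes (Cx3cl1 and Ampd3) and 2 of the 93 lower ones (Lhfpl3 and Itm2a).

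**Figure D1:**
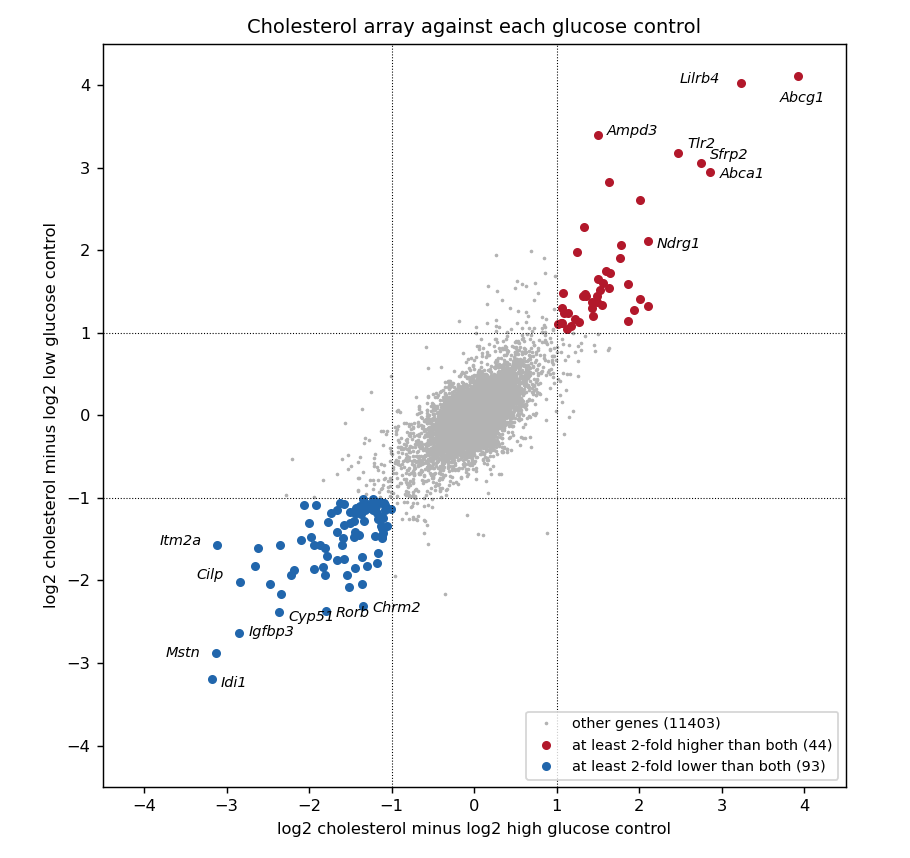
Log2 intensity of the cholesterol array minus that of the high glucose control (x axis) and of the low glucose control (y axis) for 11540 genes, 1 point a gene. Red points are the 44 genes at least 2-fold higher than both controls, blue points the 93 at least 2-fold lower, and dotted lines mark 2-fold. Both axes share the cholesterol array, so points tend towards the diagonal by construction, and Ampd3 and Itm2a lie off it because the controls differ.

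Cells hold their free cholesterol within narrow limits through opposing programmes. When sterol in the endoplasmic reticulum is low, the membrane-bound factor SREBP2 is carried to the Golgi by its escort Scap, is cut, and enters the nucleus to switch on the enzymes of sterol synthesis and the receptors of lipoprotein uptake, whereas sterol makes the Insig proteins hold Scap back. When oxidised sterols accumulate, the nuclear receptors LXR alpha and beta, paired with RXR, switch on the transporters that move cholesterol out of the cell. SREBP proteins bind short sterol regulatory elements in promoters, commonly beside CCAAT boxes bound by NF-Y, and LXR binds repeats of a hexamer with 4 bases between them.

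The promoters of some of the genes on which the results turn are shown because motifs of these programmes can be read in them. CCAAT is in the 4 synthesis genes shown, and the sterol element within 1 mismatch in all of these but Idi1. As they were picked for these motifs, that they hold them is no result. Of the called synthesis genes not shown, Cyp51 held the sterol element within 1 mismatch without CCAAT. Tm7sf2 held CCAAT without that element, and Dhcr7 held neither. The LXR repeat within 3 mismatches is in Abca1 and also, left unmarked, in Idi1 (-89 to -74) and Fdps (-106 to -91). The sequences are the 250 bases before the start of the gene, read 5′ to 3′ on the gene's own strand, from RefSeq on build GRCr8. They lie at chr17:66547525-66547774 on the minus strand for Idi1, chr2:176804817-176805066 on the minus strand for Fdps, chr16:29746863-29747112 on the plus strand for Msmo1, chrX:155817110-155817359 on the plus strand for Nsdhl and chr5:72596474-72596723 on the minus strand for Abca1. In the 4 synthesis genes, capitals of 5 letters mark CCAAT on either strand, and capitals of 9 letters mark TCACNCCAC, the core of the sterol regulatory element, with at most 1 mismatch on either strand. In Abca1, capitals mark the hexamer repeat AGGTCA, 4 bases of any kind, AGGTCA, on either strand with at most 3 mismatches, an allowance chosen after seeing the data.
Idi1: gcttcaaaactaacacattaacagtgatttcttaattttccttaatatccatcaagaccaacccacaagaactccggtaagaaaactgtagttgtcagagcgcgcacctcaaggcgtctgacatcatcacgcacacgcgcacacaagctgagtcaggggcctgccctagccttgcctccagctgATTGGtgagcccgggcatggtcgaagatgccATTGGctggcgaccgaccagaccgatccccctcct
Fdps: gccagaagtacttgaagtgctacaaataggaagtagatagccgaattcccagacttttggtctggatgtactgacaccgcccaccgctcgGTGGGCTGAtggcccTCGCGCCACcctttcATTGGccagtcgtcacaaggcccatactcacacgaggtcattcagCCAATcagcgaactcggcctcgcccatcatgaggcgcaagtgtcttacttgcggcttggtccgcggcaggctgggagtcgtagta
Msmo1: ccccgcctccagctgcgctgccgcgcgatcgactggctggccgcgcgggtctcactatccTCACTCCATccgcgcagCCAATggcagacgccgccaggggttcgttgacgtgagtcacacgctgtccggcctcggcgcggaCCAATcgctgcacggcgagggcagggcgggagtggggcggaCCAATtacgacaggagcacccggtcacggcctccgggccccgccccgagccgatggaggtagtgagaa
Nsdhl: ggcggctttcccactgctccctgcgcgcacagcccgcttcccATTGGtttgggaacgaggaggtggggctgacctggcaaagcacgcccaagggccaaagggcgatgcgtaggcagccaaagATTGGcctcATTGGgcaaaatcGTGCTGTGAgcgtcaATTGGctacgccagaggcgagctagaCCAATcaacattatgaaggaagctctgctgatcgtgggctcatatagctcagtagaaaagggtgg
Abca1: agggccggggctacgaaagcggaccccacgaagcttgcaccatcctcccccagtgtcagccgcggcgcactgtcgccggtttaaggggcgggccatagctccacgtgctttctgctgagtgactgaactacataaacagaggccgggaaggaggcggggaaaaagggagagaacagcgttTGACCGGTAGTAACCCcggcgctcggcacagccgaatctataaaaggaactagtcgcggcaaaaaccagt

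Counting used windows of 300 bases, 250 before and 50 after the start, with the first listed start of a gene. Of 11 genes of sterol synthesis, sensing and uptake that were at least 2-fold lower, 8 had a promoter in the table. CCAAT was in 6 of these (75%), against 37.7% of all 27457 promoters, 33.8% of the promoters of all lower genes and 43.8% of those of all higher genes. Of 4 called higher genes of the export and LXR list, 3 had a promoter, and 2 of these (66.7%) held CCAAT. The sterol element core was in none of the 8 without a mismatch (1.13% of all promoters hold it). With 1 mismatch it was in 5 of 8 (62.5%), against 23.5% of all promoters, 35.3% for all lower genes and 25.0% for all higher ones. Among the 3 higher genes of the export and LXR list it was in 1 (33.3%), Srebf1. Fdps held 2 such matches, at -160 to -152 and at -145 to -137 from its start. The Abca1 match stood at -70 to -55. At 3 mismatches 21.6% of all promoters hold the repeat. The share was 25.0% for the 8 lower sterol genes, 26.5% for all lower genes and 9.38% for all higher genes. Of the 3 higher LXR-list genes with a promoter 1 held it, Abca1. At 2 mismatches 2.88% of all promoters hold it and none of these 3 did. A match of letters is no measurement of binding, and no match says only that these letters are not in this window.

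Genes of sterol synthesis were lower with cholesterol at nearly every step. Of 17 measured enzymes in the synthesis lists, which run from acetoacetyl-CoA to cholesterol and include the side-branch enzyme Ggps1, 16 were lower than both controls (33.6% of all genes were), 9 of them called. Their median differences were -1.10 against the high and -1.19 against the low control, beside 0.01 and 0.00 over all genes. In the first stretch, up to squalene, 6 of 7 enzymes were lower, 3 of them by 2-fold or more. In the second stretch, from squalene to cholesterol, all 10 measured enzymes were lower and 6 passed 2-fold. With the serum arrays required as well, 4 of the 9 calls were lost, those of Sqle (-0.90), Dhcr7 (-0.80), Nsdhl (-0.70) and Tm7sf2 (-0.41). Summed intensity over the first stretch was 3385 with cholesterol, against 8470 in the high and 9263 in the low control. Over the second it was 7037 with cholesterol, against 17384 in the high and 17606 in the low control.

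Idi1 makes dimethylallyl diphosphate, the starter unit of every isoprenoid chain, and had the largest difference of the lower genes. Its log2 intensity was 6.72 with cholesterol, against 9.90 in the high and 9.92 in the low control, a difference of -3.18. The other arrays read 8.97 with fatty acid, 9.32 with OZ serum and 9.41 with LZ serum, so the cholesterol array was the lowest of the 6 and the controls the highest. The cholesterol value lay at the median of all values, where background weighs on the size of a fold. Fdps, which joins isoprenoid units into farnesyl diphosphate, read 9.88 with cholesterol, against 11.43 in the high and 11.81 in the low control. Fdft1, the squalene synthase, read 10.14 with cholesterol, against 11.52 in the high and 11.34 in the low control. Both were lowest in the cholesterol array. Acat2, which forms acetoacetyl-CoA, differed by -0.87 and -1.26 from the high and low controls, Mvd by -0.59 and -0.97 and Pmvk by -0.49 and -0.71. Mvd and Pmvk act between mevalonate and isopentenyl diphosphate. Ggps1, which makes geranylgeranyl diphosphate on a side branch, was the exception of the list, at -0.34 against the high and 0.16 against the low control.

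After squalene, Cyp51, the lanosterol demethylase, was lowest relative to the controls. It read 8.33 with cholesterol, against 10.70 in the high and 10.72 in the low control, and the other arrays lay between, from 9.74 with fatty acid to 10.30 with LZ serum. Msmo1, which removes the methyl groups at carbon 4, read 10.46 with cholesterol, against 12.40 in the high and 12.33 in the low control. All 3 other arrays were near the controls for Msmo1 (12.17 to 12.28), so only the cholesterol array was low. Sqle, the squalene epoxidase and a rate-limiting step, read 8.98 with cholesterol, against 10.56 in the high and 10.72 in the low control. Dhcr7, which makes cholesterol from its last precursor, read 7.65 with cholesterol, against 9.0 in the high and 9.36 in the low control. Its level with fatty acid, 7.79, was close to that with cholesterol. Tm7sf2 (-1.10 and -1.24) and Nsdhl (-1.10 and -1.07), which act on the same sterol ring intermediates, also passed 2-fold against both. Sc5d, a desaturase, lay just outside the threshold at -1.02 and -0.98. Hsd17b7 (-0.70 and -1.07) and Lss (-0.64 and -0.67), the lanosterol synthase, were lower by less, and Ebp, a sterol isomerase, differed by -0.20 and -0.21.

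**Figure D2:**
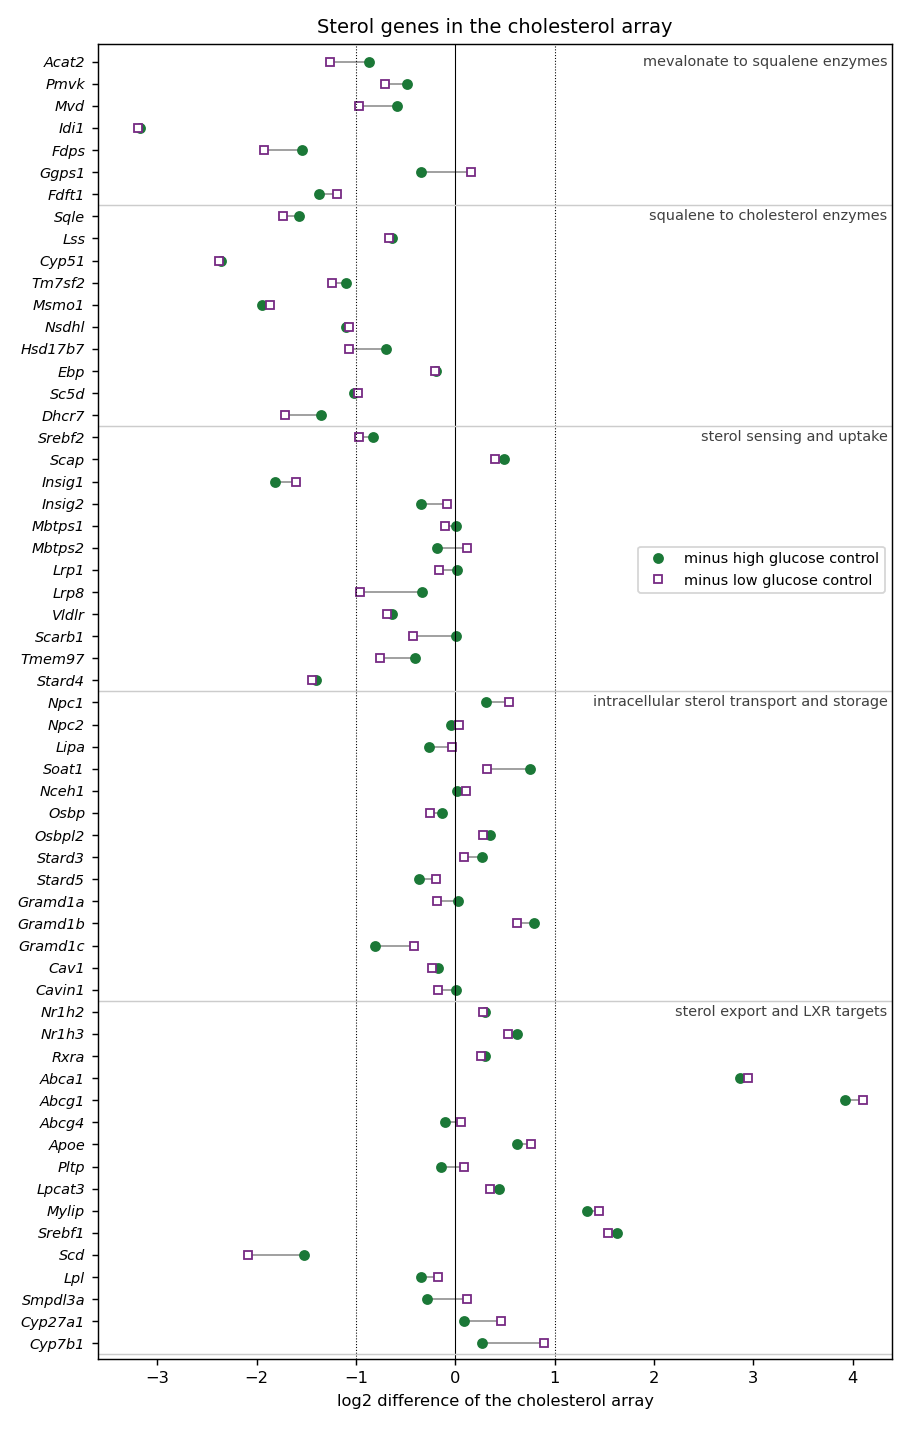
Log2 difference of the cholesterol array from the high glucose control (filled circles) and the low glucose control (open squares) for every measured gene of 5 sterol lists, in the order of the pathway from top to bottom, with dotted lines at 2-fold. Of the 17 synthesis enzymes all but Ggps1 lie left of 0 on both measures, transport and storage genes lie around 0, and Abcg1 and Abca1 stand far to the right.

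Among 12 measured genes of sterol sensing and uptake, 7 were lower than both controls and 1 was higher. Insig1, the sterol-dependent anchor of Scap, read 8.18 with cholesterol, against 9.99 in the high and 9.78 in the low control. Stard4, a soluble sterol carrier, read 7.15 with cholesterol, against 8.55 in the high and 8.60 in the low control. Insig1 in the fatty acid array (9.91) was level with the controls, while Stard4 there (7.69) was in between. Srebf2, the gene of SREBP2 itself, differed by -0.83 and -0.97 and the lipoprotein receptor Vldlr by -0.64 and -0.68. Insig2, the other anchor, differed by -0.35 and -0.08 and Tmem97, a binding partner of Npc1, by -0.41 and -0.75. Lrp8 was at -0.34 and -0.96. Scap was the higher gene, at 0.49 and 0.40. The proteases that cut SREBP, Mbtps1 (0.01 and -0.11) and Mbtps2 (-0.19 and 0.11), and the receptors Lrp1 (0.02 and -0.16) and Scarb1 (0.00 and -0.42) had no common direction against both controls.

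Genes of transport and storage inside the cell showed no shift as a group, with medians of 0.01 and 0.00 over 14 genes and none at 2-fold. Within it, Gramd1b, which carries cholesterol from the plasma membrane to the endoplasmic reticulum, was at 0.79 against the high and 0.62 against the low control, while its relative Gramd1c was at -0.81 and -0.41. Soat1, which esterifies cholesterol for storage, was at 0.75 and 0.31. Npc1, which exports cholesterol from the lysosome, was at 0.31 and 0.54, and its partner Npc2 at -0.04 and 0.04. Osbpl2 (0.34 and 0.28) and Stard3 (0.27 and 0.09) were higher than both controls. Osbp (-0.13 and -0.26), Cav1 (-0.18 and -0.24) and Stard5 (-0.37 and -0.20) were lower than both. Lipa, the acid lipase, was at -0.26 and -0.03, Nceh1 at 0.02 and 0.11, Gramd1a at 0.03 and -0.19 and Cavin1 at 0.00 and -0.17.

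On the export side, 11 of 16 measured genes were higher than both controls and 2 lower (36.3% and 33.6% of all genes), with medians of 0.30 and 0.41. Abcg1, a transporter that passes cholesterol to lipoprotein particles, had the largest difference of all genes. Its log2 intensity was 11.65 with cholesterol, against 7.73 in the high and 7.54 in the low control. It read 9.29 with fatty acid, 7.58 with OZ serum and 7.44 with LZ serum, so the fatty acid array stood between cholesterol and the other 4. Abca1, whose promoter is shown above and which loads cholesterol onto apolipoprotein A-I, read 12.27 with cholesterol, against 9.41 in the high and 9.33 in the low control. The fatty acid array, at 10.28, was again second. Srebf1, an LXR-driven gene that encodes the SREBP of fatty acid synthesis, read 10.20 with cholesterol, against 8.57 in the high and 8.66 in the low control. Mylip, a ubiquitin ligase that sends lipoprotein receptors to degradation, read 9.16 with cholesterol, against 7.84 in the high and 7.72 in the low control. Rnf145, an LXR-induced ubiquitin ligase of the endoplasmic reticulum that was on no list, read 11.86 with cholesterol, against 10.69 in the high and 10.78 in the low control. For Srebf1, Mylip and Rnf145 the cholesterol array was the highest of the 6.

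The remaining export and LXR genes moved less. Apoe, an apolipoprotein, was at 0.62 against the high and 0.77 against the low control, and Lpcat3, which remodels phospholipids, at 0.44 and 0.35. The receptors themselves, Nr1h3 (0.62 and 0.53), Nr1h2 (0.30 and 0.27) and Rxra (0.30 and 0.26), were higher than both controls by less than 2-fold. Cyp7b1 (0.27 and 0.89) and Cyp27a1 (0.09 and 0.46), which hydroxylate sterols, were higher too. Lpl, a lipase, was lower at -0.34 and -0.18, and Abcg4 (-0.11 and 0.06), Pltp (-0.14 and 0.09) and Smpdl3a (-0.29 and 0.11) were split. Scd, the stearoyl-CoA desaturase, is counted with LXR targets but is also driven by SREBP. It read 7.70 with cholesterol, against 9.22 in the high and 9.78 in the low control, and was the list's only called lower gene.

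Scd was joined by other genes of fatty acid synthesis, where 11 of 18 were lower and 6 higher than both controls. Fads2, the delta-6 desaturase, read 9.65 with cholesterol, against 10.95 in the high and 11.47 in the low control. Acss2, which makes acetyl-CoA from acetate, read 7.40 with cholesterol, against 8.52 in the high and 8.88 in the low control. Elovl6 (-0.80 and -0.93), Acly (-0.47 and -0.85) and Fads1 (-0.42 and -0.90) stayed under 2-fold. Dgat1, which makes triglyceride, was higher at 0.50 and 0.40. Among 20 genes of fatty acid oxidation and lipid droplets none was called, and the medians were 0.05 and 0.01. Cpt1a, which admits fatty acids to mitochondria, was at 0.70 and 0.77 and Plin2, a coat protein of lipid droplets, at 0.63 and 0.52, whereas Pparg, a nuclear receptor of lipid storage, was at -0.50 and -0.55.

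Lysosomal genes tended upwards without a call. Of 26, 17 were higher and 4 lower than both controls (36.3% and 33.6% of all genes), with medians of 0.17 and 0.26. Summed intensity was 84150 with cholesterol, against 75745 in the high and 67662 in the low control, so the controls differed from each other nearly as much. Atp6v1b2, a proton pump subunit (0.60 and 0.81), Mcoln1, a lysosomal calcium channel (0.57 and 0.74), Neu1, a sialidase (0.50 and 0.68), Gpnmb (0.50 and 0.76) and Flcn (0.49 and 0.56) led, and Wipi1 was lowest (-0.41 and -0.39). Mcoln3, a relative of Mcoln1 outside the list, was called, at 8.84 with cholesterol, against 7.40 in the high and 7.63 in the low control. Lgals3, a galectin that gathers on damaged lysosomes, was at 12.30 with cholesterol, against 10.81 in the high and 10.85 in the low control. The other arrays held Lgals3 at 10.45 to 10.78.

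Some genes best known from other cell types stood among the largest positive differences. Lilrb4, an inhibitory receptor of myeloid cells, read 10.18 with cholesterol, against 6.95 in the high and 6.16 in the low control, and 9.46 with fatty acid. Cd68, a glycoprotein of macrophage lysosomes, read 8.37 with cholesterol, against 6.81 in the high and 6.77 in the low control. Both genes had controls close to the median of all values. Of 19 macrophage and leukocyte markers, 6 passed the filter, and 5 of these were higher than both controls with 2 called (Lilrb4 and Cd68). Summed intensity of the 6 was 2016 with cholesterol, against 708.2 in the high and 666.9 in the low control. Without Lilrb4 and Cd68 the sum was 522.7 with cholesterol, against 471.9 in the high and 486.5 in the low control. For the 13 markers under the filter it was 705.6 with cholesterol, against 655.9 in the high and 710.5 in the low control. The part of such cells in the result was not tested beyond these values. Defining markers lay under the median of all values in every array used, with Ptprc (CD45) at 5.42 with cholesterol, against 5.53 in the high and 5.52 in the low control. Csf1r read 6.40 with cholesterol, against 6.11 in the high and 6.18 in the low control, and Adgre1, Itgam and Aif1 read 6.05, 5.60 and 4.82 with cholesterol.

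Mlana, a melanosome protein known from melanocytes, read 10.07 with cholesterol, against 8.07 in the high and 7.47 in the low control, and 7.24 to 7.73 in the other arrays. Melanocyte genes looked up after this value was seen did not share a difference of that size, though several were higher by less than 2-fold. Pmel differed by 0.32 and 0.31 from the high and low controls, and Gpnmb, also on the lysosome list, by 0.50 and 0.76. Tyr (3.87), Tyrp1 (6.68) and Dct (5.94) lay under the median of all values with cholesterol. Their differences were 0.20 and 0.13 for Tyr, 0.20 and 0.70 for Tyrp1 and -0.22 and -0.09 for Dct. Mitf, a factor of melanocytes that also acts on lysosomal genes, was at 0.38 and 0.83. Sox10, another melanocyte and Schwann cell factor, was at 0.00 and -0.16.

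Of the markers of the labelled cell type, 13 of 17 annotated mesenchymal and 5 of 12 myogenic ones passed the filter. In all 3 arrays Thy1, Pdgfrb and Prrx1 were far above the median of all values, and Myod1, Myog and Myf5 under it. The mesenchymal genes Thy1, Pdgfrb and Prrx1 read 13.28, 12.67 and 13.21 with cholesterol, against 13.50, 12.74 and 12.99 in the high and 13.51, 12.68 and 13.03 in the low control. The myogenic factors Myod1 (6.17 with cholesterol), Myog (6.64) and Myf5 (5.98) were under the median of all values, as was Cdh15 (6.05). Pax7, the satellite cell factor, was just above it, at 7.02 with cholesterol, against 6.90 in the high and 7.04 in the low control. Of 13 mesenchymal markers 8 were lower and 2 higher with cholesterol, led by the cadherin Cdh11 (-0.94 and -0.98), and none was called. The 5 myogenic markers that passed had medians of -0.10 and -0.11. Their summed intensity was 5292 with cholesterol, against 5700 in the high and 6330 in the low control, so markers well above the median were among them. Among other cell types, the endothelial markers Cdh5, Tek and Vwf read 5.89, 5.91 and 5.97 with cholesterol, Adipoq of adipocytes 6.01 and Epcam of epithelium 4.42, all under the median. Of 2 endothelial markers that passed the filter, 1 was higher than both controls, by 0.21 from the nearer one, and 1 was lower. The lower one was Erg, an endothelial transcription factor, at -1.83 against the high and -0.78 against the low control. Of 4 pericyte markers that passed the filter, 2 were higher and 1 lower than both controls, with medians of 0.18 and 0.02. The lower one was Mcam, at -1.21 and -0.61.

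Inflammatory genes were higher with cholesterol, most of them by less than 2-fold. Of 17 cytokines and chemokines, 11 were higher and 3 lower than both controls (36.3% and 33.6% of all genes), with medians of 0.34 against each. Tslp, a cytokine of epithelial and stromal cells, read 9.73 with cholesterol, against 7.97 in the high and 7.82 in the low control. The chemokine Cxcl1, which draws neutrophils, read 10.55 with cholesterol, against 9.06 in the high and 9.17 in the low control. Both were higher still with fatty acid, at 11.11 for Tslp and 11.85 for Cxcl1. Cx3cl1, a membrane-bound chemokine, read 9.76 with cholesterol, against 8.13 in the high and 6.94 in the low control, so that the controls were also over 2-fold apart. Csf1, the growth factor of macrophages, was at 1.06 and 0.93, Ccl20 at 0.79 and 0.91 and Csf3 at 0.73 and 0.85, while Il33 (-0.30 and -0.62) and Cxcl12 (-0.27 and -0.75) were lower. In the NF-kB list 13 of 16 genes were higher and none lower than both controls, none of them by 2-fold, with Icam1 (0.65 and 0.67), Nfkbiz (0.58 and 1.06) and the inhibitor Nfkbia (0.50 and 0.83) in front. Tnip3, which restrains NF-kB and was on no list, read 9.48 with cholesterol, against 7.62 in the high and 8.34 in the low control.

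Receptors and secreted proteins of innate immunity went both ways. Tlr2, the receptor for bacterial lipoproteins, read 9.97 with cholesterol, against 7.5 in the high and 6.79 in the low control, and no other array exceeded 7.57. Ly96 (0.59 and 0.94) and Cd14 (0.51 and 1.12), which bind endotoxin, were higher and Il1rl1, the receptor of Il33, was lower (-0.96 and -1.94). Pla2g2a, a secreted phospholipase of the acute phase, read 10.13 with cholesterol, against 8.35 in the high and 8.06 in the low control. Lcn2 (0.86 and 1.17), the complement factor C3 (0.85 and 1.91) and Serpina3n (0.65 and 1.21) were higher by less. Of 13 interferon genes 6 were higher and 4 lower, near the shares over all genes, with only Usp18 called. Usp18, a protease that ends interferon signalling, read 9.44 with cholesterol, against 7.80 in the high and 7.72 in the low control, while Ifit2 was at -1.11 and -0.88 and Irf7 at 0.44 and 0.49. Olr1, a scavenger receptor for oxidised LDL, was lower by a wide margin. It read 7.81 with cholesterol, against 10.15 in the high and 9.98 in the low control, and the lowest of the other arrays, LZ serum, read 9.41.

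**Figure D3:**
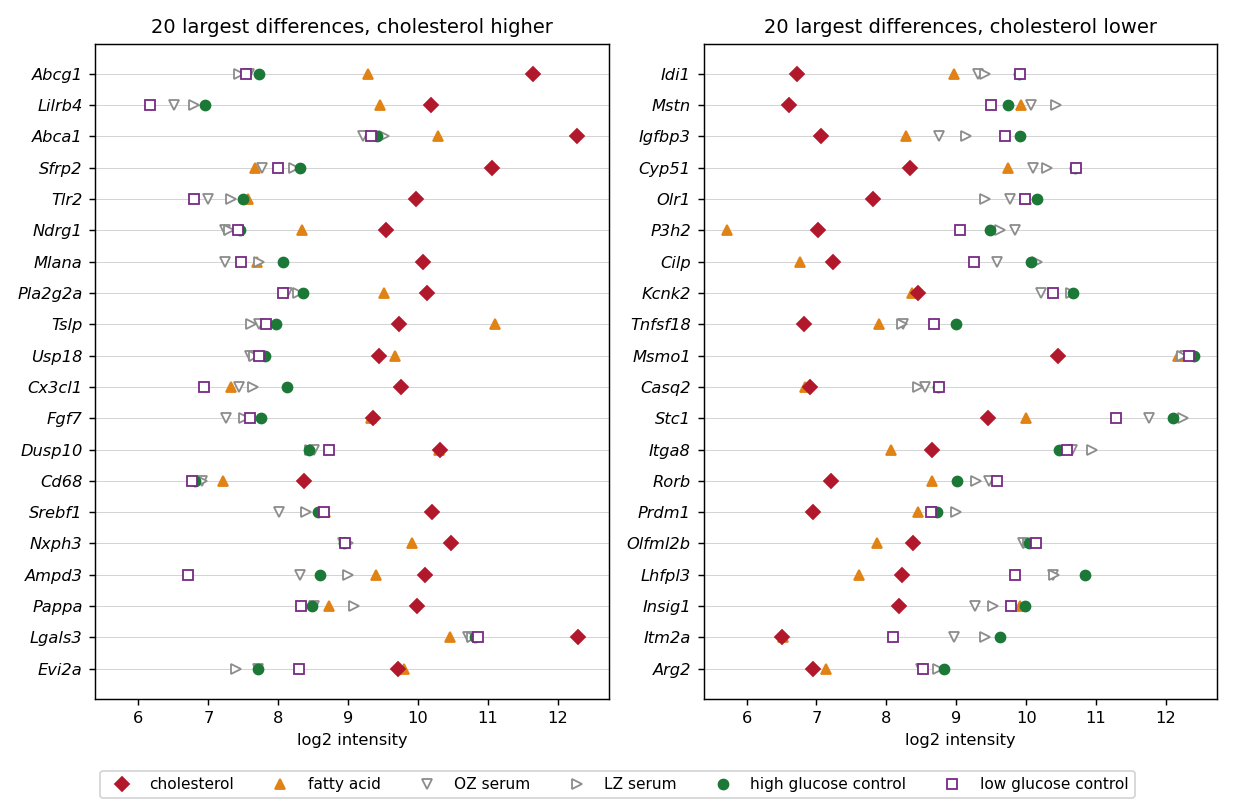
Log2 intensity in each of the 6 arrays for the 20 genes with the largest differences from both controls, higher with cholesterol on the left and lower on the right, largest at the top. Red diamonds are cholesterol, orange triangles fatty acid, open grey triangles the serum arrays, green circles the high glucose and open squares the low glucose control. For Sfrp2, Tlr2 and Mlana only the cholesterol array stands apart, whereas for Fgf7, Dusp10, Kcnk2 and Casq2 the fatty acid array lies with it.

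Stress and signalling genes gave a mixed picture. Immediate early genes were higher than both controls in 14 of 22 cases and lower in 6 (36.3% and 33.6% of all genes). Atf3, a stress-induced repressor, read 8.56 with cholesterol, against 7.22 in the high and 7.09 in the low control. Jun (1.19 and 0.99), which lay just under the threshold, Egr1 (0.92 and 0.81) and Egr2 (0.85 and 0.73) were higher. The orphan receptors Nr4a1 (-0.93 and -0.86), Nr4a2 (-0.99 and -0.62) and Nr4a3 (-0.62 and -0.82) were lower. Among phosphatases that switch off MAP kinases, Dusp10 read 10.31 with cholesterol, against 8.45 in the high and 8.72 in the low control, and Dusp5 read 9.64 with cholesterol, against 8.51 in the high and 8.59 in the low control. Spry1, an inhibitor of growth factor signalling, was lower at 9.89 with cholesterol, against 11.02 in the high and 11.24 in the low control.

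Targets of ATF4, the factor that raises amino acid supply during stress, were low as a group. Of 29, 25 were lower than both controls, 3 by 2-fold, and the medians were -0.53 and -0.84. Slc7a3, a transporter of cationic amino acids, read 6.82 with cholesterol, against 8.40 in the high and 8.14 in the low control. Aldh1l2, of mitochondrial folate metabolism, was at -1.18 and -1.79 and Trib3, a pseudokinase, at -1.11 and -1.49. The serine synthesis enzyme Psat1 was at -0.82 and -1.18, Chac1, which degrades glutathione, at -0.81 and -0.87, and the cystine carrier Slc7a11 at -0.79 and -0.97. Gdf15 was the exception, higher at 0.51 and 0.35, and Ddit3 (0.15 and -0.16), Cbs and Ppp1r15a were split. The controls themselves differed here, with a median of -0.22 for high minus low glucose. Of 19 tRNA synthetases, 13 were lower and 2 higher with medians of -0.17 and -0.38 and none called. Chaperones of the endoplasmic reticulum were lower in 18 of 24 cases and higher in 2, all by less than 2-fold, with Dnajb11 (-0.50 and -0.48) and Dnajc3 (-0.48 and -0.39) among the lowest and Hspa5 at -0.19 and -0.24. Slc7a2 and Arg2, which import and split arginine, were called lower outside these lists, at 7.20 and 6.95 with cholesterol, against 8.65 and 8.83 in the high and 8.62 and 8.53 in the low control.

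None of 25 oxidative stress genes was called, and their medians were 0.12 and 0.25. Nqo1 (0.67 and 0.73), a quinone reductase, and Hmox1 (1.09 and 0.67), a heme oxygenase, were higher and the peroxidase Gpx1 lower (-0.69 and -1.27). The metal-binding protein Mt2A read 12.61 with cholesterol, against 10.68 in the high and 11.34 in the low control, and Mt1 was at 1.47 and 0.78, while Slc30a1, the zinc exporter of the plasma membrane, was at -0.64 and -0.57. In the hypoxia and glycolysis list, 17 of 28 were higher and 6 lower (36.3% and 33.6% of all genes), with Ndrg1 alone called. Ndrg1, a differentiation gene raised by hypoxia, read 9.55 with cholesterol, against 7.45 in the high and 7.43 in the low control, and 8.34 with fatty acid. Hk2 (1.30 and 0.79), a hexokinase, and the glucose carrier Slc2a1 (0.93 and 0.57) were higher, and Car9, a carbonic anhydrase, was lower (-1.38 and -0.51). Respiratory chain, proteasome and ribosomal protein genes held medians between -0.07 and 0.10 with none called.

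Genes of cell division depended on the control. The 22 mitosis genes had medians of 0.02 against the high and -0.37 against the low control, and the 24 DNA replication genes 0.19 and -0.21. The high control lay under the low control by a median of -0.41 for mitosis and -0.36 for replication. Not one mitosis gene was higher than both controls, 10 were lower than both, and Cdk1 was lowest at -0.36 and -0.72.

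Secreted growth regulators included the largest lower differences outside sterol metabolism. Mstn, myostatin, an inhibitor of muscle growth, read 6.61 with cholesterol, against 9.74 in the high and 9.49 in the low control, and between 9.93 and 10.43 in the other arrays. Only the cholesterol array was low, and its value lay under the median of all values. Igfbp3, which binds insulin-like growth factors, read 7.06 with cholesterol, against 9.91 in the high and 9.70 in the low control, with 8.28 to 9.14 in the other arrays. Pappa, a protease that cuts other proteins of the same binding family, was higher at 9.98 with cholesterol, against 8.48 in the high and 8.33 in the low control. Across 36 genes of the TGF-beta, BMP and activin family, 24 were lower and 8 higher (33.6% and 36.3% of all genes) with medians of -0.12 and -0.14. The BMP antagonists Chrdl1 (-1.66 and -1.41) and Nog (-1.58 and -1.07) and the ligand Bmp6 (-1.22 and -1.10) were called with Mstn. Bambi (-1.01 and -0.92), Tgfb2 (-0.84 and -0.96) and Bmp4 (-1.17 and -0.78) stayed under 2-fold against at least 1 control, and the co-receptor Tgfbr3 was higher (0.86 and 1.07).

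Sfrp2, a secreted modulator of Wnt signalling, was the Wnt gene with the largest difference. It read 11.05 with cholesterol, against 8.31 in the high and 8.0 in the low control, and 7.66 to 8.23 in the other arrays. Fzd8, a Wnt receptor, read 9.62 with cholesterol, against 10.90 in the high and 10.74 in the low control, and the list's 25 genes had medians of -0.08 and -0.19. Fgf7, a growth factor for epithelium, read 9.35 with cholesterol, against 7.76 in the high and 7.60 in the low control, and was at 9.32 with fatty acid. Fgf10 was at 0.95 and 1.04, and Pdgfd, a platelet-derived growth factor, at -2.06 and -1.09. Jag1, a Notch ligand, read 10.43 with cholesterol, against 11.52 in the high and 11.49 in the low control, while the Notch targets Hes1 (-0.26 and -0.30) and Hey1 (-0.21 and -0.22) differed by less. Stc1, a secreted glycoprotein of calcium and phosphate balance, read 9.45 with cholesterol, against 12.11 in the high and 11.28 in the low control.

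Collagen chains were lower almost throughout, mostly by less than 2-fold, and other matrix genes less evenly. Of 19 collagen chains, 18 were lower than both controls and Col12a1 was called, with medians of -0.30 against the high and -0.66 against the low control. Summed intensity of the chains was 43113 with cholesterol, against 57417 in the high and 66425 in the low control. Col12a1, a fibril-associated collagen, read 12.08 with cholesterol, against 13.19 in the high and 13.30 in the low control. Col3a1 was at -0.50 and -0.80 and Col1a1 at -0.19 and -0.34, and Col6a3 at 0.05 and -1.44 was split. P3h2, a collagen prolyl 3-hydroxylase, read 7.02 with cholesterol, against 9.49 in the high and 9.06 in the low control, with 5.72 in the fatty acid array. In the list of collagen modification and crosslinking 13 of 20 were lower and 1 higher, and in the glycoprotein list 20 of 28 were lower and 2 higher. Cilp, of cartilage matrix, read 7.23 with cholesterol, against 10.08 in the high and 9.25 in the low control. Ogn, a small proteoglycan, read 11.04 with cholesterol, against 12.98 in the high and 12.61 in the low control. Hapln1, which links hyaluronan to proteoglycans, was at -1.44 and -1.18 and Lama4, a laminin chain, at -1.06 and -1.35. For P3h2, Cilp, Ogn, Hapln1 and Lama4 the fatty acid array was lower still than the cholesterol array. Lum, another small proteoglycan, was at -2.21 against the high but -0.52 against the low control.

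Remodelling and adhesion genes were split, and of 26 matrix proteases and inhibitors 13 were lower and 9 higher than both controls. The aggrecanase Adamts5 read 9.30 with cholesterol, against 11.22 in the high and 10.38 in the low control, and Adamtsl3 was at -1.16 and -1.25. Mmp9 (1.08 and 0.86) and Serpine2 (0.89 and 0.66) were higher. Of the integrins, Itga8, a chain of the nephronectin receptor, read 8.66 with cholesterol, against 10.46 in the high and 10.59 in the low control. Itga2, of a collagen receptor, was opposite, at 8.60 with cholesterol, against 7.05 in the high and 7.26 in the low control. Fndc1, Olfml2b and Hmcn1, which encode matrix or secreted proteins, were called lower outside the lists at differences of -1.57, -1.66 and -1.57.

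Some muscle genes were lower. Casq2, the calcium store protein calsequestrin, read 6.91 with cholesterol, against 8.75 in each control, and 6.84 with fatty acid. Pln, phospholamban, lay just outside the threshold at -1.94 and -0.99. Acta1, the skeletal actin, was at -1.31 and -0.95 and Mef2c, a muscle transcription factor, at -0.73 and -0.71. No gene of skeletal muscle differentiation was called, and 10 of 24 annotated members passed the filter. Of these 10, 5 were lower and 2 higher than both controls (33.6% and 36.3% of all genes), with medians of -0.09 and -0.15. Of 11 genes of muscle calcium handling, 7 were lower and 0 higher, with medians of -0.26 and -0.29. Of 15 smooth muscle and myofibroblast genes, 9 were lower and 2 higher, with medians of -0.07 and -0.19. Npr3, the clearance receptor of natriuretic peptides, read 9.54 with cholesterol, against 11.55 in the high and 10.85 in the low control, and the guanylate cyclase Npr1 was higher (0.69 and 0.64). Of membrane proteins outside the lists, the potassium channel Kcnk2 read 8.45 with cholesterol, against 10.67 in the high and 10.38 in the low control. Chrm2, a muscarinic receptor, was at -1.34 and -2.31 and the sodium-calcium exchanger Slc24a3 at -1.35 and -2.05.

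Regulators of transcription and genes of other roles were also called. Rorb, a nuclear receptor, read 7.21 with cholesterol, against 9.01 in the high and 9.59 in the low control. Prdm1, a transcriptional repressor, read 6.95 with cholesterol, against 8.73 in the high and 8.65 in the low control. The lowest of the other arrays, fatty acid, read 8.46 for Prdm1. Hmga2, a chromatin protein of proliferating progenitors, was higher at 8.65 with cholesterol, against 6.55 in the high and 7.32 in the low control. Of glucocorticoid targets, the kinase Sgk1 read 11.47 with cholesterol, against 10.05 in the high and 10.17 in the low control, and Tsc22d3 was lower at -1.32 and -1.09. Others called higher were Ampd3, an AMP deaminase, Nxph3 (1.52), the dynamin Dnm1 (1.36), the inositol carrier Slc5a3 (1.24) and the metalloreductase Steap3 (1.13). Others called lower were Tnfsf18, a cytokine of the TNF family (-1.87), the sialyltransferase St3gal6 (-1.51) and the retinal reductase Dhrs3 (-1.31).

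**Figure D4:**
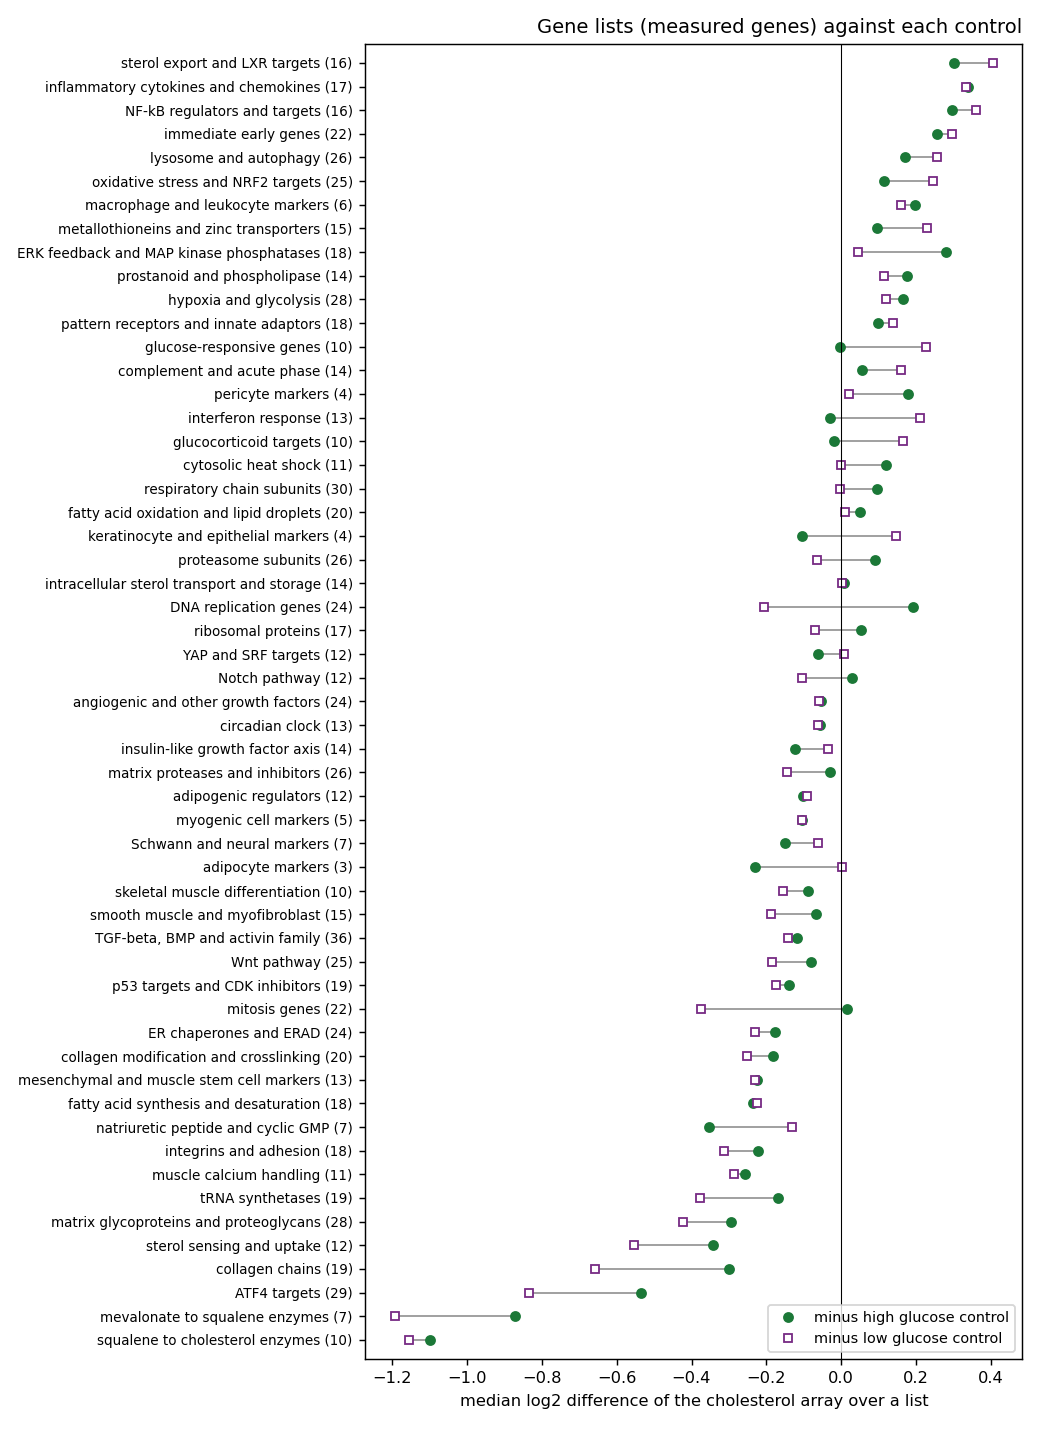
Median log2 difference of the cholesterol array over each gene list with at least 3 measured genes, against the high glucose control (filled circles) and the low glucose control (open squares), with the number of measured genes in brackets. Sterol synthesis enzymes and ATF4 targets lie furthest left on both measures, sterol export, NF-kB and cytokine lists furthest right, and mitosis and replication lists change side with the control.

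Read against single controls, 75 genes were at least 2-fold higher than the high glucose control (0.65%) and 91 than the low glucose control (0.789%), and 157 (1.36%) and 125 (1.08%) at least 2-fold lower. Requiring the serum arrays as well left 38 higher (0.329%) and 75 lower (0.65%). The cholesterol array was the highest of all 6 for 34 of the 44 higher genes and the lowest for 54 of the 93 lower ones, and 19 and 16 were at least 2-fold beyond each of the 5 other arrays. Set directly against the fatty acid array, 221 genes were at least 2-fold higher (1.92%) and 104 lower (0.901%) with cholesterol. Of the called genes, 21 of 44 and 20 of 93 were also at least 2-fold beyond the fatty acid array in the direction of their call. These counts share the cholesterol array that chose the genes, so nothing is read from them.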

How the data were processed

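RNA was read on Affymetrix arrays of the Rat Gene 2.0 ST design, per the labels. The deposited values are intensities on a linear scale, with 1 value for each probe set on each array. How they were summarised, background-corrected and normalized is not given in the sources used here. Median intensity ran from 104.6 to 109.2 over the arrays, and log2 was taken without an offset. The number of arrays, 1 a group, limits the precision.

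Of 36685 probe sets, 18511 had 1 gene in the platform annotation, 575 several and 17599 none, and only the first were named. RefSeq GRCr8 held 18394 of their Entrez identifiers and changed 0 symbols. For 291 genes with more than 1 probe set, that of highest mean was used. Groups came from the sample titles.

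The comparison, the gene lists (56, with 1190 genes, 871 of them measured) and the rules were chosen with earlier results of these data known, so no list is independent support for its own direction. Named genes are up to 40 called genes in each direction, up to 6 members of each list with the largest differences, all measured sterol genes, and defining cell type markers. Outside this rule, Bmp4, Car9, Cbs, Col3a1, Col6a3, Cxcl12, Ddit3, Dgat1, Gdf15, Hspa5, Il33, Lum, Mitf, Nr4a2, Nr4a3, Ppp1r15a, Tgfb2 and the melanocyte genes beside Mlana were chosen after their values were seen. Some genes of the sterol lists were not analysed here.

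Alternatives were quantile normalization, median centring, cyclic loess, no filter, a stricter filter (75th percentile, log2 8.68), the mean of probe sets, an offset of 32, thresholds of 1.5-fold and 3-fold, each control alone, the mean of the controls and the serum arrays as further references. The scripts were tested on simulated data. Tools were Python 3.11.15, numpy 2.4.6, pandas 2.3.3, matplotlib 3.10.9, R 4.3.3 and limma 3.58.1.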

Additional observations from a re-analysis of the deposited data

Results flagged for a closer look

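Probe sets without a gene name in the annotation used here also differed. Of 17599, 6207 passed the same filter, and 18 (0.29%) were at least 2-fold higher with cholesterol than in both controls, the largest by 2.07 on the log2 scale. In the other direction 15 (0.242%) were at least 2-fold lower, the largest at -2.77. Some of these hold identical values, which leaves 16 distinct higher and 12 distinct lower ones. Among the same probe sets 102 had controls at least 2-fold apart from each other. They were singled out because the named comparison does not use them, and which transcripts they read was not analysed here.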

How the results depend on the processing

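Scaling had little effect: higher and lower calls numbered 45 and 94 after quantile normalization, 42 and 100 after median centring and 43 and 94 after cyclic loess, and under each the median difference over all genes lay less than 0.1 from 0. Without a signal filter the counts were 50 and 95, with the stricter filter 36 and 81, with the mean of probe sets 44 and 92, and with an offset of 32 before log2 they were 37 and 76. A threshold of 1.5-fold gave 157 and 235, and one of 3-fold 13 and 18. Against the high glucose control alone 75 were higher and 157 lower, against the low glucose control alone 91 and 125, and against the mean of the controls 71 and 124. Of the 137 called genes, 88 (30 higher, 58 lower) stayed at 2-fold under every alternative that kept this threshold, and no called gene changed direction. Each control alone, the mean of the controls and no filter could not lose or reverse a call, by construction. Of 756 list medians 22 moved, 0 of the 330 under another scaling. Low signal limits the folds of 8 higher genes with a control under the median of all values and of 11 lower genes with the cholesterol value under it. No paired analysis was possible because each group is 1 array, and for the same reason no replicate could be left out.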
